A study of Mus musculus with 8 samples.

Results

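ADAM genes (a disintegrin and metalloprotease) encode membrane proteins with a propeptide, a metalloprotease domain, a disintegrin domain and a cytoplasmic tail. Widely expressed members such as ADAM10 and ADAM17 are sheddases, which cut the outer part of receptors, ligands and adhesion proteins from the cell surface and need an intact zinc-binding site for it. In the testis, other members are made in spermatocytes and spermatids and carried on the sperm surface, where ADAM1B and ADAM2 form fertilin and ADAM3 is needed for sperm to pass the uterotubal junction and to bind the zona pellucida. Members were all gene symbols made of Adam, a number and at most 1 further letter, which leaves out the Adamts genes, and 32 of the 23235 symbols listed for each library met this rule. From what is known of their expression they were grouped into a testis list of 19 genes (testis-restricted or sperm-surface), a wide list of 7, a neural list of 3 (Adam11, Adam22, Adam23, without protease activity) and 3 other members (Adam7 of the epididymis, Adam8 of myeloid cells, Adam28 of lymphocytes and epididymis). The testis list as written held 23 genes, of which Adam20, Adam36, Adam37 and Adam38 are not among the symbols. Tests covered the 29 members with FPKM (mapped fragments scaled to transcript length and library size) above 1 in at least 1 library, among 15899 genes that passed this filter. Of these members, 9 (6 testis, 2 wide and 1 neural) exceed 1 FPKM only in Cnot4-null PD, so they were tested only because of that group. Counts of higher calls in Cnot4-null PD and medians of these lists include them. The other 3 were Adam7, listed at 0 in all 8 libraries, Adam33, whose values ran from 0 to 0.612 FPKM, and Adam22, whose highest value was 0.911 FPKM.

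The study asked what loss of CNOT4, a RING-type ubiquitin ligase that associates with the CCR4-NOT deadenylase, does to RNA in male meiosis. Spermatocytes were sorted from testes of 6-week-old C57BL/6 males by Hoechst and propidium iodide staining into leptotene and zygotene cells (LZ) and pachytene and diplotene cells (PD). The 4 groups were WT LZ, WT PD, Cnot4-null LZ and Cnot4-null PD, with 2 libraries each, where Cnot4-null stands for Cnot4 fl/fl;Stra8-Cre mice. The methods describe Smart-Seq2 cDNA of sorted cells primed with oligo-dT, whereas the sample labels describe Trizol extraction and a TruSeq kit on total RNA, so the preparation is uncertain. Stra8-Cre acts in germ cells shortly before meiosis, and other testis cells keep the gene. WT libraries come from mice of the same strain, and the labels do not say whether they carry Cre or the floxed allele. The methods call the 2 libraries of a group biological replicates without saying that they came from separate animals, so p-values measure only the spread between these samples. Cnot4 itself stood at 36 and 34.9 FPKM (WT LZ), 43.2 and 34.6 (Cnot4-null LZ), 76.6 and 73.1 (WT PD) and 65.9 and 53.5 (Cnot4-null PD). The WT PD values lay above all others and the Cnot4-null PD values came next. In limma, the Cnot4 difference between the genotypes was -0.33 ± 0.20 (SE) on the log2(FPKM + 1) scale at PD (adjusted p = 0.192, lower in both Cnot4-null libraries, 0.000501 to 0.421 over 18 settings, called after rescaling each library to the same median) and 0.12 at LZ (adjusted p = 1, with overlapping values). The deletion removes exon 2, and 1 value per gene does not test it. For the protein, the authors report a strong reduction of CNOT4 in testis lysates and its absence from germ cells by immunohistochemistry.

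The stage and cell type labels were compared with lists of marker genes. Of all genes tested, 21.6% were called higher and 36.2% lower from LZ to PD in WT. The shares between the genotypes at PD were 41.6% higher and 11.5% lower. WT libraries followed their stage labels for PD genes: all 8 PD spermatocyte markers were called higher in WT PD than in WT LZ, and their summed level, led by Ldhc, was 203 and 325 FPKM (WT LZ), 208 and 86.2 (Cnot4-null LZ), 11926 and 11051 (WT PD) and 5273 and 1795 (Cnot4-null PD). Cnot4-null PD libraries also carried markers of other cell types. The authors checked the identity and purity of their sorted cells by SYCP3 and pH2AX staining. They found the prophase stages in like proportions in both genotypes and arrest at metaphase I in Cnot4-null testes. Whether the marker RNA came from other cells or from the spermatocytes themselves was not tested. The 8 spermatid markers, led by Prm1, summed to 1838 and 1529.5 FPKM (WT LZ), 4043 and 714 (Cnot4-null LZ), 424 and 264 (WT PD) and 15868 and 7203 (Cnot4-null PD), and 8 of 8 were called higher in Cnot4-null PD than in WT PD with a median log2 fold change of 4.65. This sum was above WT PD in every LZ library, but Acrv1, Spaca1 and Catsper3 were lower in WT LZ replicate 1 and in both Cnot4-null LZ libraries than in either WT PD library. The 6 Leydig markers summed to 17.2 and 9.89 FPKM (WT LZ), 10.8 and 19 (Cnot4-null LZ), 116 and 7.07 (WT PD) and 10073 and 22274 (Cnot4-null PD), with 6 of 6 called higher between the genotypes at PD and Insl3 alone at 9669 and 21608 FPKM in the 2 Cnot4-null PD libraries. The 4 peritubular myoid markers, led by Acta2, summed to 4.09 and 5.15 FPKM (WT LZ), 3.07 and 1.88 (Cnot4-null LZ), 3.75 and 2.33 (WT PD) and 61.1 and 285 (Cnot4-null PD), with 4 of 4 higher.

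Spermatogonial markers, led by Uchl1, summed to 652 and 619 FPKM (WT LZ), 424 and 582 (Cnot4-null LZ), 63.8 and 79.2 (WT PD) and 311 and 412 (Cnot4-null PD). Of the 7, 6 were called lower and 1 higher from LZ to PD in WT, and 6 were called higher in Cnot4-null PD than in WT PD. Sertoli markers, led by Clu, summed to 70.1 and 63.5 FPKM (WT LZ), 7.95 and 10.8 (Cnot4-null LZ), 10.01 and 18.8 (WT PD) and 122 and 262 (Cnot4-null PD), with Amh at 0 in 7 of 8 libraries. Of the 6 tested, 4 were called lower from LZ to PD in WT and 4 higher in Cnot4-null PD than in WT PD. Both Cnot4-null LZ sums lay below both WT LZ sums, where limma called 0 of 6 (4 at an unadjusted p under 0.05). Macrophage markers, led by Lyz2, summed to 35.7 and 0.915 FPKM (WT LZ), 12.1 and 2.51 (Cnot4-null LZ), 2.75 and 1.6 (WT PD) and 24.3 and 108 (Cnot4-null PD), with 3 of 6 called higher between the genotypes at PD. Endothelial markers, led by Cdh5, summed to 0.123 and 0.0331 FPKM (WT LZ), 0.384 and 0.454 (Cnot4-null LZ), 0.343 and 0.249 (WT PD) and 1.76 and 7.36 (Cnot4-null PD), with 1 of 2 tested higher. The macrophage and endothelial counts are near the 41.6% of all genes tested that were called higher there. The 5 epididymis markers summed to 0 and 0.223 FPKM (WT LZ), 0 and 0 (Cnot4-null LZ), 12.8 and 15.1 (WT PD) and 4.49 and 1.29 (Cnot4-null PD), nearly all of it Rnase10, and Lcn5 and Lcn8 were listed at 0 in all 8 libraries. The 6 LZ markers, led by Sycp3, summed to 1666 and 1931 FPKM (WT LZ), 3531 and 1998 (Cnot4-null LZ), 1100.1 and 1138 (WT PD) and 966 and 606 (Cnot4-null PD), with 3 called higher and 2 lower between the genotypes at PD. No PD spermatocyte marker was called higher in Cnot4-null PD and 2 of 8 were called lower (median log2 fold change -1.31). Meiob and Rhox5 are not among the symbols. The part of these other cell types in the ADAM values was not tested. Both Cnot4-null PD libraries carry their markers, and results without 1 of the 2 show only how far a value rests on that library.

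**Figure D1:**
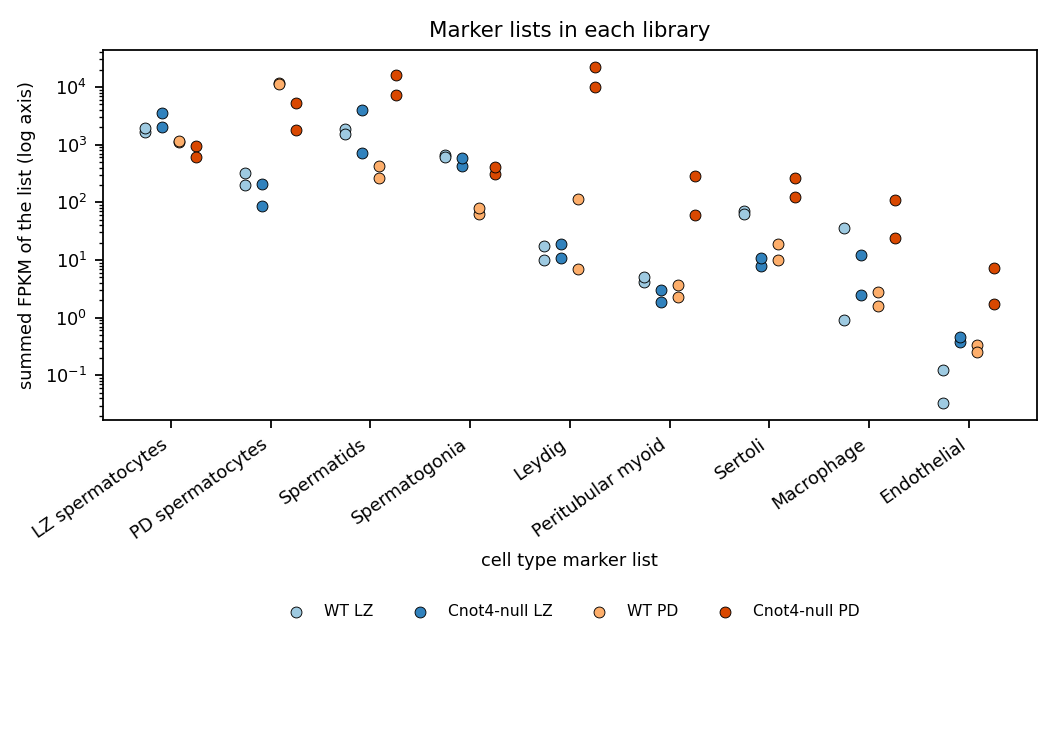
Summed FPKM of each marker list (vertical log axis) for the cell type lists on the horizontal axis, with 1 point per library coloured by group. The Cnot4-null PD points lie far above the WT PD points for spermatid (15868 and 7203 against 424 and 264 FPKM) and Leydig markers, and below them for PD spermatocyte markers.

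The metalloprotease site is not intact in all members. The zinc-binding motif of the family, with its 3 zinc-binding histidines, the glutamate of catalysis and a glycine, was looked for in the coding sequence of each member (GENCODE vM1, mm9). It was present in 19 of 32 members, namely in 7 of 7 of the wide list, 10 of 19 of the testis list, 0 of 3 of the neural list and 2 of 3 others. Capitals mark the codons that encode the residue required at 1 of the 5 fixed places, in windows of 33 bases shown to compare members with and without the site.
Adam10, chr9:70602103-70609392 (+): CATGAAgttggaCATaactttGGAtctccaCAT
Adam17, chr12:21342593-21342625 (-): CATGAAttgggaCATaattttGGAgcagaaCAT
Adam9, chr8:26100798-26100830 (-): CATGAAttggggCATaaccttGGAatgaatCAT
Adam15, chr3:89148702-89148734 (-): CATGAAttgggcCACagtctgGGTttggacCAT
Adam12, chr7:141152841-141152873 (-): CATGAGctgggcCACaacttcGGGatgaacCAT
Adam1b, chr5:121951946-121951978 (-): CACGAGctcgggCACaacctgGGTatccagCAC
Adam1a, chr5:121970098-121970130 (-): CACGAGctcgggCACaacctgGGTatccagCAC
Adam30, chr3:97965784-97965816 (+): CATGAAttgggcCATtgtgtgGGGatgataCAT
Adam25, chr8:41840115-41840147 (+): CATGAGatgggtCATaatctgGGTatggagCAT
Adam21, chr12:82660909-82660941 (-): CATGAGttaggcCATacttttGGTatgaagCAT
Adam4, chr12:82521750-82521782 (-): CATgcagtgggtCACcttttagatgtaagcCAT
Adam6a, chr12:114783261-114783293 (+): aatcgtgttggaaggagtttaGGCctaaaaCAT
Adam2, chr14:66672678-66672710 (-): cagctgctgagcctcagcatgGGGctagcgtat
Adam3, chr8:25817890-25817922 (-): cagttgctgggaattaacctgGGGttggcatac
Adam5, chr8:25916921-25916953 (-): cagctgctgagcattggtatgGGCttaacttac
Adam18, chr8:25758320-25758352 (-): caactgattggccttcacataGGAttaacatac
Adam32, chr8:26011973-26012005 (-): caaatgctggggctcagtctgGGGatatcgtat
The Adam10 window is joined from coding exons 9 and 10, and each other window lies within 1 exon. The 5 named wide members have 5 of 5 codons. Adam1a and Adam1b have the same 33 bases, again with 5 of 5. Adam2, Adam3, Adam5, Adam18 and Adam32 keep 1 of 5, the glycine, Adam6a keeps 2 and Adam4 keeps 3.

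From LZ to PD in WT, the family passed from a low total led by a sheddase to a high total led by sperm-surface genes. The 32 members summed to 97.6 and 99.9998 FPKM (WT LZ), 97.9 and 76.6 (Cnot4-null LZ), 2057 and 1915 (WT PD) and 1079 and 483 (Cnot4-null PD). Adam10 was the most abundant member in all 4 LZ libraries, Adam5 in both WT PD libraries, Adam32 in Cnot4-null PD replicate 1 and Adam2 in replicate 2. The wide list made up 73.1% and 53.6% of the family total (WT LZ), 68.3% and 86.4% (Cnot4-null LZ), 0.286% and 0.273% (WT PD) and 2.01% and 7.88% (Cnot4-null PD). In bulk samples, fewer cells of a type and less RNA per cell cannot be told apart.

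In limma on log2(FPKM + 1), where a gene is called at an adjusted p under 0.05, 9 of the 29 members tested were called higher and 5 lower in WT PD than in WT LZ, beside 21.6% of the 15899 genes called higher and 36.2% lower. All 9 higher calls were in the testis list (9 higher, 0 lower and 10 not called, median log2 fold change 0.71), and the wide list had 0 higher, 4 lower and 2 not called (median -2.01), beside a median of -0.32 over all genes tested. Quantile normalization gave 12 members higher and 3 lower and rescaling each library to the same median 11 and 5, with medians of 1.30 and 1.13 for the testis list, -1.38 and -1.49 for the wide list and -0.06 and 0.05 for all genes. All genes called in WT went from 9190 to 8935 and 9439 in these fits. In Cnot4-null, 19 members were called higher and 2 lower in PD than in LZ, beside 27.8% and 18.2% of all genes. The testis list had 18 higher and 1 not called there (median 2.37), the wide list 1 higher, 2 lower and 3 not called (median -0.67), and all genes a median of 0.19. Quantile normalization gave 14 higher and 6 lower in Cnot4-null, rescaling gave 17 and 3, and the median of all genes became -0.29 and -0.22. All genes called in Cnot4-null went from 7316 to 7960 after quantile normalization and 8509 after rescaling. Without Cnot4-null LZ replicate 2 the medians were 2.32 for the testis list, -0.44 for the wide list and 0.16 for all genes.

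**Figure D2:**
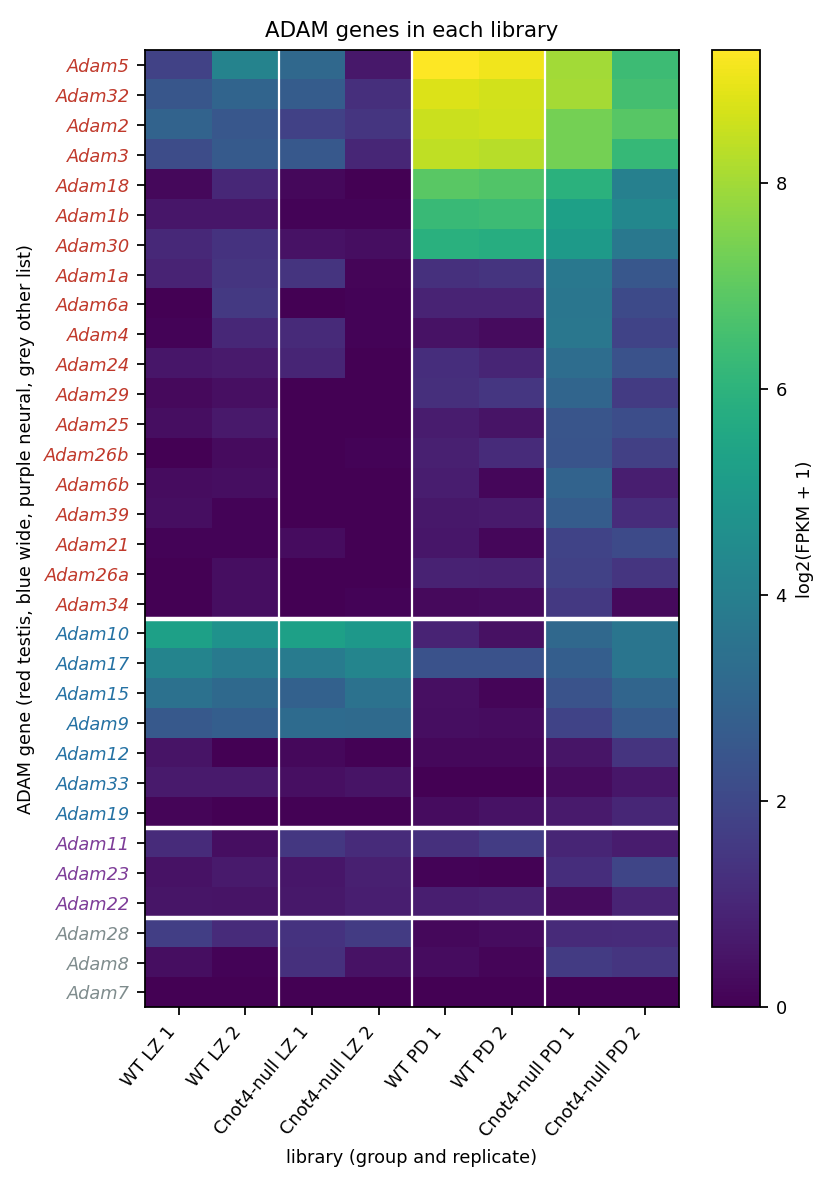
Colour scale of log2(FPKM + 1) for each of the 32 members (vertical axis, label colour by list) in each of the 8 libraries (horizontal axis). Adam5, Adam32, Adam2, Adam3, Adam18, Adam1b and Adam30 are bright in PD and dark in LZ, from 54 FPKM upward in WT PD, while Adam10 is brightest in LZ, at 26 to 38 FPKM.

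Among the testis list, 5 genes have several coding exons (19 to 22) and the other 14 have a single one, a difference in structure that was noticed after the values had been seen and is used only to order the description. The 5 had the highest mean FPKM of all members in WT PD and in Cnot4-null PD, although Adam1b lay above Adam18 in Cnot4-null PD replicate 2. Adam5, a sperm-surface member without the zinc site, stood at 2.59 and 16.7 FPKM (WT LZ), 7.72 and 0.512 (Cnot4-null LZ), 626 and 549 (WT PD) and 256 and 81.8 (Cnot4-null PD). Adam32, another sperm-surface member, stood at 4.65 and 6.89 FPKM (WT LZ), 5.49 and 1.38 (Cnot4-null LZ), 446 and 398 (WT PD) and 263 and 89.9 (Cnot4-null PD). Adam2, which encodes fertilin beta, stood at 6.83 and 4.76 FPKM (WT LZ), 2.48 and 1.69 (Cnot4-null LZ), 375 and 397 (WT PD) and 160.2 and 115 (Cnot4-null PD). For these 3 genes every PD library lay above every LZ library, every Cnot4-null PD value lay below both WT PD values, and replicate 2 was the lower of the Cnot4-null PD pair. Adam3 (cyritestin) stood at 3.42 and 5.23 FPKM (WT LZ), 4.85 and 0.999 (Cnot4-null LZ), 336 and 309 (WT PD) and 160.3 and 74.5 (Cnot4-null PD). Adam18 stood at 0.144 and 1.02 FPKM (WT LZ), 0.154 and 0 (Cnot4-null LZ), 119 and 108 (WT PD) and 60.8 and 15.7 (Cnot4-null PD), with 1 Cnot4-null LZ library listed at 0. Both showed the same order of groups, with no overlap between LZ and PD or between WT PD and Cnot4-null PD.

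The ratio of mean FPKM in WT PD to WT LZ ran from 61 (Adam5) to 194 (Adam18) over the 5 genes. Both ends depend strongly on the WT LZ library, with Adam5 at 2.59 and 16.7 FPKM there and Adam18 at 0.144 and 1.02. Fold changes here are on the log2(FPKM + 1) scale, on which genes with low values move less than their ratios. Adam2 rose by 5.85 ± 0.26 (SE) from LZ to PD in WT, higher in both PD libraries (limma adjusted p = 1.66e-05, 1.47e-05 to 0.00169 over 18 settings), and by 5.48 ± 0.26 in Cnot4-null (adjusted p = 0.000100). Adam5 had the largest standard error of the 5, with a rise of 6.21 ± 1.01 in WT (adjusted p = 0.00141, 0.000583 to 0.016) and 5.33 ± 1.01 in Cnot4-null (adjusted p = 0.00514, 0.00327 to 0.0545), the last not called without Cnot4-null PD replicate 1, at 4.51 (adjusted p = 0.0545). The rise in WT was 6.23 ± 0.58 for Adam18 (limma adjusted p = 0.000109), 5.98 ± 0.60 for Adam32 (adjusted p = 0.000141) and 5.95 ± 0.54 for Adam3 (adjusted p = 0.000100), each higher in both PD libraries. In Cnot4-null the same genes rose by 4.90 (limma adjusted p = 0.000906), 5.30 (adjusted p = 0.000739) and 5.01 (adjusted p = 0.000662). The difference of the rises between genotypes, the interaction, was not called for any of the 5 (adjusted p from 0.246 for Adam18, at -1.33, to 0.653 for Adam5, at -0.88). Over settings it was called lower for Adam18 in 2 of 17 (adjusted p from 0.0219 to 0.936), after rescaling and without Cnot4-null PD replicate 1, and for Adam2 (0.00762 to 0.906) and Adam3 (0.034 to 0.869) in 1 each, after rescaling.

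Of the single-exon genes, 2 reached high levels at PD. Adam1b, which encodes the fertilin alpha subunit found on sperm, stood at 0.464 and 0.494 FPKM (WT LZ), 0.0621 and 0.0549 (Cnot4-null LZ), 78.4 and 82.3 (WT PD) and 37.9 and 18.5 (Cnot4-null PD). Adam30 stood at 1.08 and 1.57 FPKM (WT LZ), 0.385 and 0.273 (Cnot4-null LZ), 58.9 and 54 (WT PD) and 32.3 and 12.3 (Cnot4-null PD). In both, all 4 PD libraries lay above all 4 LZ libraries and both Cnot4-null PD libraries lay below both WT PD libraries. From LZ to PD in WT, Adam1b rose by 5.78 ± 0.34 (limma adjusted p = 2.36e-05, 1.96e-05 to 0.00169 over 18 settings) and Adam30 by 4.63 ± 0.42 (adjusted p = 9.46e-05, 4.6e-05 to 0.00244), each higher in both PD libraries. The rises in Cnot4-null were 4.70 (limma adjusted p = 0.000315) and 3.99 (adjusted p = 0.000598).

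**Figure D3:**
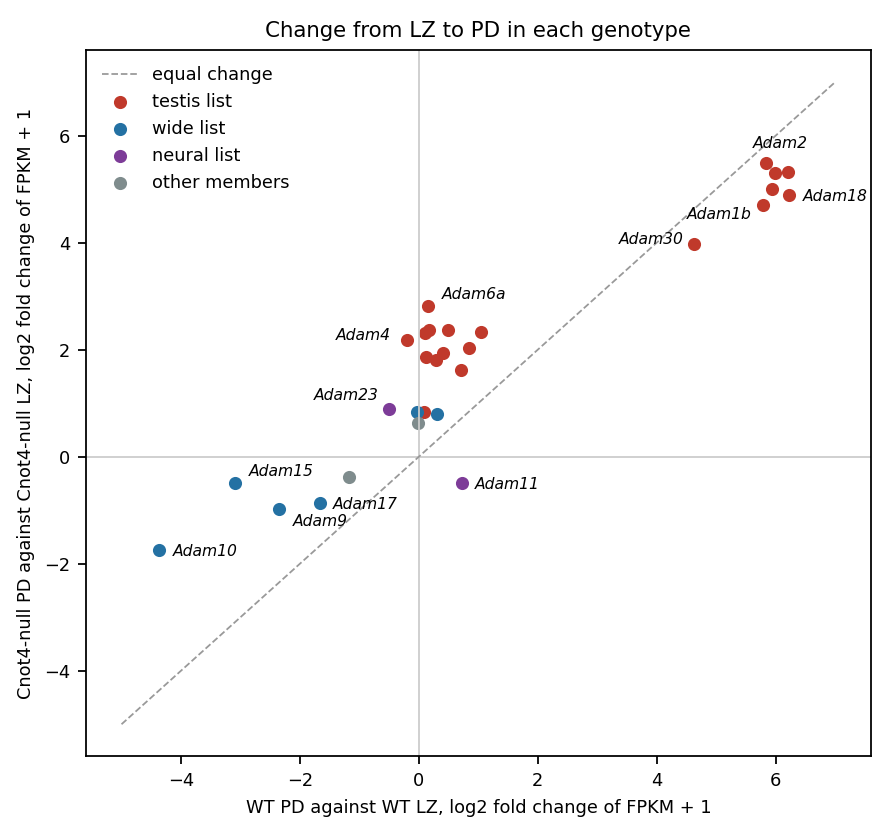
Log2 fold change of FPKM + 1 from LZ to PD in WT (horizontal axis) and in Cnot4-null (vertical axis), 1 point per member tested, coloured by list, with a dashed line of equal change. Adam18, Adam5, Adam32, Adam3, Adam2 and Adam1b lie far right at 5.78 to 6.23 and Adam10 lies furthest left at -4.36.

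The 12 other single-exon genes had mean values from 0.185 (Adam34) to 1.56 FPKM (Adam29) in WT PD and from 1.03 (Adam34) to 8.54 (Adam1a) in Cnot4-null PD. This group was formed after seeing the values, by a WT PD mean below 10 FPKM, and 6 of the 12 (Adam21, Adam25, Adam26a, Adam34, Adam39 and Adam6b) exceed 1 FPKM only in Cnot4-null PD and so were tested only because of that group. Comparisons with WT PD or between PD groups are therefore tied to the choice of these genes, and no count or median is given for the 12 together. Adam1a encodes the fertilin alpha subunit that acts in the endoplasmic reticulum of germ cells and that ADAM3 needs to reach sperm. Adam1a stood at 0.916 and 1.68 FPKM (WT LZ), 1.61 and 0.102 (Cnot4-null LZ), 1.42 and 1.67 (WT PD) and 12.3 and 4.78 (Cnot4-null PD). Adam6a stood at 0 and 1.92 FPKM (WT LZ), 0 and 0.0639 (Cnot4-null LZ), 0.89 and 0.917 (WT PD) and 11.6 and 3.2 (Cnot4-null PD), with 2 LZ libraries listed at 0. Adam4 stood at 0.0732 and 1.04 FPKM (WT LZ), 1.17 and 0.0692 (Cnot4-null LZ), 0.361 and 0.221 (WT PD) and 12 and 2.67 (Cnot4-null PD). For all 3, WT PD values lay within the range of the LZ libraries, and both Cnot4-null PD libraries lay above every other library, with replicate 1 well above replicate 2. All 3 were named for their mean FPKM over the 8 libraries, which includes Cnot4-null PD, so their choice is tied to these values. Adam25 (testase 2) stood at 0.257 and 0.548 FPKM (WT LZ), 0 and 0 (Cnot4-null LZ), 0.636 and 0.388 (WT PD) and 4.43 and 3.6 (Cnot4-null PD), so that Cnot4-null LZ is listed at 0. Adam21 stood at 0.0575 and 0.0544 FPKM (WT LZ), 0.246 and 0 (Cnot4-null LZ), 0.473 and 0.13 (WT PD) and 2.64 and 3.21 (Cnot4-null PD). For these 2 genes the Cnot4-null PD pair was closer together and again above all other libraries.

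From LZ to PD in WT, limma called Adam26b (0.85 ± 0.31, adjusted p = 0.0461, 0.00658 to 0.226 over 18 settings) and Adam26a (0.71 ± 0.26, adjusted p = 0.0481, 0.00391 to 0.184 over the 17 settings that tested it), each higher in both PD libraries. The WT change was 0.16 for Adam1a (limma adjusted p = 0.841), 0.16 for Adam6a (adjusted p = 0.878) and -0.20 for Adam4 (adjusted p = 0.843), none called and each of a sign that depends on the setting. The WT and Cnot4-null stage comparisons share no library, but both enter the interaction.

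Some of these values rest on few steps and on near-identical copies. After scaling by the relative totals, the FPKM of 27 of the 32 members were whole multiples of 1 step per gene, within 0.02 of a whole number or, for Adam32 with its large multiples, 0.0224, a tolerance tightened after the values had been seen. Adam34 stood at 3 and 4 steps in WT PD, against 28 and 2 in Cnot4-null PD, and Adam39 at 9 and 11 against 80 and 15. Adam25 stood at 12 and 8 steps against 69 and 46, and Adam21 at 10 and 3 against 46 and 46. How many fragments make up 1 step is not known, so no counting interval is given. Coding sequences were 96.08% identical between Adam25 and Adam39, 94.79% between Adam6a and Adam6b, 94.36% between Adam26a and Adam26b, 89.59% between Adam34 and Adam26a and 82.48% between Adam1a and Adam1b. Of all 50-base windows, the trimmed read length, 32.05% in Adam25, 32.67% in Adam6a, 35.55% in Adam26a, 12.07% in Adam34 and 45.81% in Adam1a also occur in another member. The authors kept uniquely mapped reads, so levels of these genes are uncertain.

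Overlapping genes add to that uncertainty, since the use of strand in the counting is not stated. Adam1a overlaps Mapkapk5 on the same strand and Tmem116 on the opposite one, Adam1b overlaps Tmem116, and Adam4 overlaps Cox16 and Synj2bp on the same strand. Tmem116 stood at 28.9 and 26.7 FPKM in WT PD, against 16.9 and 7.03 in Cnot4-null PD, and Cox16 at 57.1 and 63.2 FPKM in WT PD, against 34.3 and 17.2 in Cnot4-null PD. Mapkapk5 stood at 9.33 and 10.6 FPKM in WT PD, against 13.7 and 15.5 in Cnot4-null PD. Adam17 overlaps Iah1 on the opposite strand, which stood at 118 and 114 FPKM (WT LZ), 55.8 and 69.3 (Cnot4-null LZ), 13.8 and 11 (WT PD) and 43.6 and 37.7 (Cnot4-null PD). Adam15 overlaps 4731419I09Rik on the opposite strand.

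Of the 6 wide members tested, 4 were called lower from LZ to PD in WT, the opposite order of stages. The other 2, Adam12 and Adam19, were not called. Adam10, the main sheddase of Notch receptors and cadherins and an alpha-secretase, stood at 38 and 26 FPKM (WT LZ), 37.8 and 29.8 (Cnot4-null LZ), 0.876 and 0.321 (WT PD) and 7.78 and 11.2 (Cnot4-null PD). Adam17, the converting enzyme of tumour necrosis factor, stood at 17.1 and 13.1 FPKM (WT LZ), 13.7 and 17.6 (Cnot4-null LZ), 4.05 and 4.04 (WT PD) and 5.79 and 11.3 (Cnot4-null PD). Adam15 stood at 10.1 and 8.14 FPKM (WT LZ), 6.43 and 10.2 (Cnot4-null LZ), 0.291 and 0.0889 (WT PD) and 4.18 and 7.2 (Cnot4-null PD). In all 3 the LZ libraries of both genotypes were high and overlapped, WT PD was lowest, and Cnot4-null PD lay between, with the exception that the lowest LZ value of Adam15 and the highest Cnot4-null PD value change places. Adam9 (meltrin gamma) stood at 5.06 and 5.8 FPKM (WT LZ), 8.49 and 8.17 (Cnot4-null LZ), 0.271 and 0.248 (WT PD) and 2.67 and 5.2 (Cnot4-null PD). Adam12 (meltrin alpha) stood at 0.396 and 0 FPKM (WT LZ), 0.156 and 0.0394 (Cnot4-null LZ), 0.154 and 0.157 (WT PD) and 0.457 and 1.64 (Cnot4-null PD), with 1 WT LZ library listed at 0. Adam9 had the same order of groups as Adam10 apart from 1 Cnot4-null PD value within the WT LZ range, and Adam12 was low throughout, with its highest value in Cnot4-null PD replicate 2.

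From LZ to PD in WT, Adam10 fell by 4.36 ± 0.31 on the log2 scale, lower in both PD libraries (limma adjusted p = 4.14e-05, 3.5e-05 to 0.0026 over 18 settings). Adam15 fell by 3.09 ± 0.34 (limma adjusted p = 0.000213, 0.000154 to 0.00435), Adam9 fell by 2.35 ± 0.31 (adjusted p = 0.00047, 0.000197 to 0.00771) and Adam17 fell by 1.66 ± 0.33 (adjusted p = 0.00345, 0.00203 to 0.0511), each lower in both PD libraries. Adam12 was not called (-0.03, limma adjusted p = 0.97), and its sign depends on the setting. In Cnot4-null the change was -1.74 ± 0.31 for Adam10 (limma adjusted p = 0.00422, 0.00138 to 0.038), lower in both PD libraries, and -0.97 for Adam9 (adjusted p = 0.0362, 0.00328 to 0.137, called in 7 of 18 settings), -0.49 for Adam15 (adjusted p = 0.267, 0.0402 to 0.731) and -0.86 for Adam17 (adjusted p = 0.0669, 0.00998 to 0.258), the last 2 not called. Sertoli markers (4 of 6 tested) and spermatogonial markers (6 of 7) were also called lower from LZ to PD in WT, beside 36.2% of all genes. The part of these cell types in the fall of these members was not tested. Adam19 (meltrin beta) ranged from 0 to 1.01 FPKM over the 8 libraries, highest in Cnot4-null PD replicate 2. It exceeds 1 FPKM only in that library, with at most 0.36 outside Cnot4-null PD, so it was tested only because of the group in which it was called higher, from LZ to PD in Cnot4-null (0.79, limma adjusted p = 0.0321, 0.00341 to 0.886). It was called in 9 of 17 settings (adjusted p = 0.0127 with no filter), with -0.0412 after quantile normalization.

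Neural members and the 3 others were low in all groups. Adam11 ranged from 0.267 to 2.12 FPKM, and Adam23, which binds secreted LGI proteins in brain, from 0.0364 in WT PD to 2.81 in Cnot4-null PD. Adam28 stood at 2.32 and 1.2 FPKM (WT LZ), 1.59 and 2.09 (Cnot4-null LZ), 0.136 and 0.25 (WT PD) and 1.15 and 1.21 (Cnot4-null PD). WT PD was lowest, and the Cnot4-null PD values lay near or below the LZ values. Adam28 fell by 1.18 ± 0.29 on the log2 scale from LZ to PD in WT, lower in both PD libraries (limma adjusted p = 0.00974, 0.00408 to 0.0762). Adam8 ranged from 0.052 to 2.03 FPKM and was highest in Cnot4-null PD.

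Between the genotypes at PD, members were called in both directions. In limma, 15 of the 29 members tested were called higher and 5 lower, beside 41.6% of all genes tested called higher and 11.5% lower. The median log2 fold change was 0.97 over the members and 0.66 over all genes, so that genes as a whole were shifted upward. This shift depends on the scaling, with an all-gene median of -0.10 after quantile normalization and -0.21 after libraries were rescaled to a common median, and the split of member calls moved with it, to 2 higher and 6 lower and to 7 higher and 8 lower. The count was 19 (13 higher, 6 lower) without Cnot4-null PD replicate 1 and 20 (17 higher, 3 lower) without replicate 2. Without WT PD replicate 1 it was 7 (6 higher, 1 lower) and without WT PD replicate 2 it was 6 (5 higher, 1 lower), where all genes called went from 8449 to 4341 and 4057. All genes called were 6913 after quantile normalization and 10082 after rescaling. This comparison shares the WT PD libraries with the WT stage comparison and the Cnot4-null PD libraries with the Cnot4-null one.

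Of the 19 testis genes, 6 exceed 1 FPKM only in Cnot4-null PD. Higher calls and medians of this list therefore include genes tested only because of that group. The testis list had 9 genes called higher, 5 lower and 5 not called, with a median of 0.97, which turned to -0.38 after quantile normalization (0 higher, 4 lower) and was 0.20 after rescaling (3 higher, 7 lower). Without Cnot4-null PD replicate 1 its median was 0.34, below the all-gene median of 0.66 in that fit, with 5 higher and 6 lower, and without replicate 2 it was 1.42, beside 0.57, with 12 higher and 3 lower. The wide list had 3 called higher, 0 lower and 3 not called, with a median of 1.39, 0.18 after quantile normalization (2 higher, 1 lower) and 0.80 after rescaling (3 higher, 0 lower). The median of the wide list was 1.79 without Cnot4-null PD replicate 1 and 0.98 without replicate 2. Adam12 and Adam19 exceed 1 FPKM only in Cnot4-null PD replicate 2, so they were tested only because of that library. Of the 2 neural members tested, 1 (Adam23) was called higher, and of the 2 others, 2 (Adam8 and Adam28) were. Adam23 exceeds 1 FPKM only in Cnot4-null PD, so it was tested only because of that group. Adam28 turned to -0.31 after quantile normalization. Adam11 was not called (-0.63) but was called lower in 2 of 18 settings, with values from -1.90 to -0.45 over all of them.

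**Figure D4:**
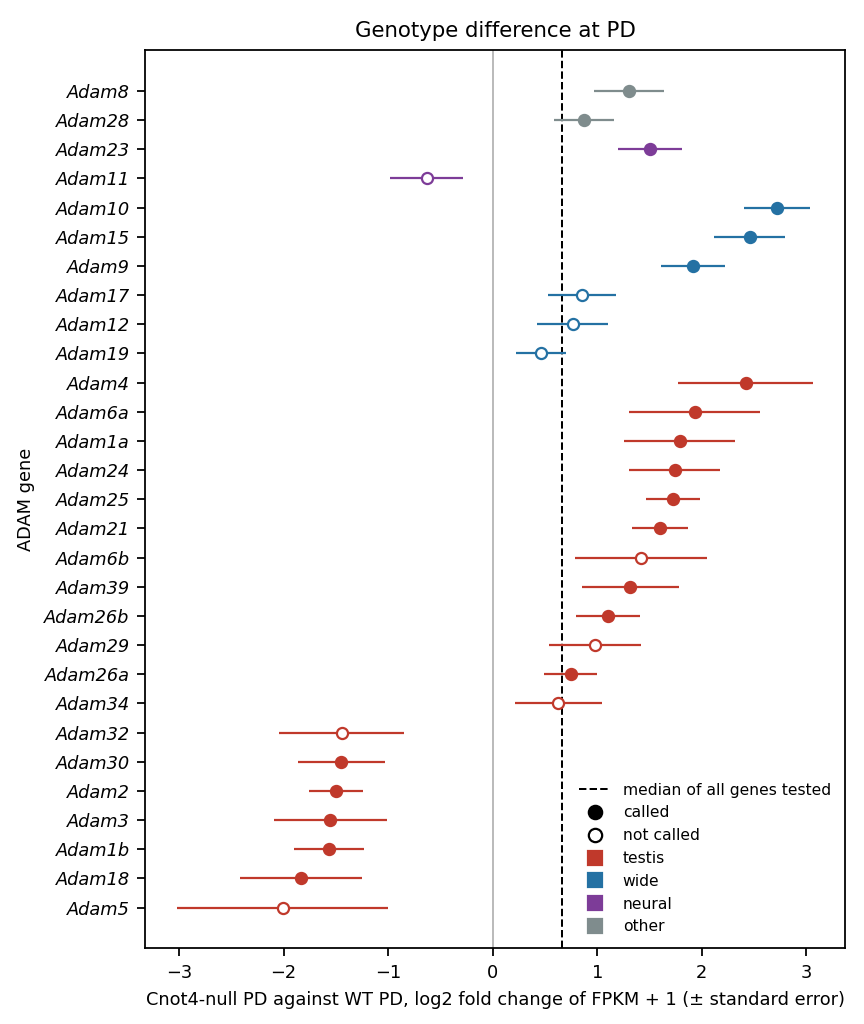
Log2 fold change of FPKM + 1 between Cnot4-null PD and WT PD (horizontal axis, bars for the standard error) for the 29 members tested (vertical axis), filled where called and coloured by list, with a dashed line at the median of all genes tested, 0.66. Adam5, Adam18, Adam1b, Adam3, Adam2, Adam30 and Adam32 lie at -2.01 to -1.45, and Adam10 is furthest right at 2.72; after quantile normalization, 9 of the members plotted to the right of 0 turn negative, whereas these 7 and Adam10 keep their sign.

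The 5 several-exon genes had mean values in Cnot4-null PD between 28.8% (Adam5) and 41.9% (Adam32) of those in WT PD, and were lower under each of the 18 settings. These shares depend on the Cnot4-null PD library, where Adam5 stood at 256 and 81.8 FPKM and Adam32 at 263 and 89.9. All 8 PD spermatocyte markers had a median of -1.31 (range -2.15 to -0.43, which holds all 7 members that follow), from which Adam5 differed by -0.70, Adam18 by -0.52, Adam3 by -0.24, Adam2 by -0.19 and Adam32 by -0.14, and of the 2 abundant single-exon genes Adam1b by -0.25 and Adam30 by -0.14. The part of the share of PD cells in these values was not tested. Adam2 fell by 1.498 ± 0.26 on the log2 scale, or -2.16 relative to the all-gene median, and was lower in both Cnot4-null PD libraries (limma adjusted p = 0.00326, 0.000408 to 0.0358 over 18 settings). It was called in all of them. Adam18 fell by 1.83 ± 0.58 (limma adjusted p = 0.0329, 0.00241 to 0.145), and without Cnot4-null PD replicate 2 its change was -0.89 and not called (adjusted p = 0.125). Adam3 fell by 1.55 ± 0.54 (limma adjusted p = 0.0457, 0.00224 to 0.278), and without that library its change was -1.004 and not called (adjusted p = 0.278). Both genes also lost their call without either WT PD library or either WT LZ library, and Adam18 without either Cnot4-null LZ library, with adjusted p-values up to 0.145 for Adam18 and 0.171 for Adam3 without WT PD replicate 1.

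Adam32 (-1.45 ± 0.60, limma adjusted p = 0.0754, 0.00402 to 0.424) and Adam5 (-2.01 ± 1.01, adjusted p = 0.129, 0.0181 to 0.522) were not called, though both Cnot4-null PD libraries were lower. After rescaling, all 5 several-exon genes were called lower, and after quantile normalization 2 of 5. Without Cnot4-null PD replicate 1, 4 of the 5 were called lower, with Adam32 at -2.22 (adjusted p = 0.0355), and without replicate 2 only Adam2 was. Adam1b fell by 1.56 ± 0.34 and was lower in both Cnot4-null PD libraries (limma adjusted p = 0.00781, 0.000533 to 0.065). Adam30 fell by 1.45 ± 0.42 (limma adjusted p = 0.0233, 0.00112 to 0.123). Their means were 35.1% and 39.5% of WT PD. Without WT PD replicate 1 or 2 neither was called, with adjusted p-values of 0.057 and 0.065 for Adam1b and 0.123 and 0.102 for Adam30. Without Cnot4-null PD replicate 2 the change was -1.07 for Adam1b and -0.78 for Adam30.

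Of the other testis genes, Adam4 rose by 2.42 ± 0.65, or 1.76 relative to the all-gene median, higher in both Cnot4-null PD libraries (limma adjusted p = 0.0176, 0.012 to 0.218), and was 1.51 without replicate 1 (not called, adjusted p = 0.0763). Adam6a rose by 1.93 ± 0.63 (limma adjusted p = 0.0352, 0.027 to 0.54) and was 1.14 without replicate 1 (not called, adjusted p = 0.181). Adam1a rose by 1.79 ± 0.53 (limma adjusted p = 0.0257, 0.0244 to 0.534) and was 1.19 without replicate 1 (not called, adjusted p = 0.13). None of these 3 was called after quantile normalization. They were named for a mean FPKM that includes Cnot4-null PD, so this rise is tied to their choice. The 8 spermatid markers, all called higher at PD with a median of 4.65, also had the larger sum in Cnot4-null PD replicate 1, and their part in the rise of these 3 genes was not tested. Adam25 rose by 1.73 ± 0.26 (limma adjusted p = 0.00181, 0.00127 to 0.375) and Adam21 by 1.60 ± 0.27 (adjusted p = 0.00281, 0.00211 to 0.42), both higher in both Cnot4-null PD libraries, called without either Cnot4-null PD library and not called after quantile normalization. Adam25 and Adam21 exceed 1 FPKM only in Cnot4-null PD. With no filter they were also called (adjusted p = 0.00318 and 0.00512), and Adam21 is not tested with a mean of at least 1.

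Among the sheddases, Adam10 rose by 2.72 ± 0.31, or 2.06 relative to the all-gene median, higher in both Cnot4-null PD libraries (limma adjusted p = 0.000644, 0.00055 to 0.0152 over 18 settings). Its mean in Cnot4-null PD was 9.52 FPKM, below the LZ means of 32 in WT and 33.8 in Cnot4-null. Adam15 rose by 2.46 ± 0.34 (limma adjusted p = 0.00129, 0.000623 to 0.0272) and, like Adam10, was called higher in each of the 18 settings, both scalings included. Adam9 rose by 1.92 ± 0.31 (limma adjusted p = 0.00235, 0.000754 to 0.125), and after quantile normalization its change was 0.62 and not called. Adam17 was not called (0.86 ± 0.33, limma adjusted p = 0.059, 0.0107 to 0.624), and its change was -0.25 after quantile normalization and -0.37 after rescaling. Without Cnot4-null PD replicate 1 it was 1.29 and called (adjusted p = 0.0107). Adam12, which exceeds 1 FPKM only in Cnot4-null PD replicate 2, was not called either (0.76 ± 0.34, limma adjusted p = 0.0958, 0.00946 to 0.366), with -0.32 after quantile normalization and, called, 1.19 without Cnot4-null PD replicate 1 (adjusted p = 0.00946). Adam10, Adam15, Adam9, Adam17 and Adam12 were each higher in Cnot4-null PD replicate 2 than in replicate 1, and replicate 2 also had the larger sums of Leydig, myoid, Sertoli, macrophage, endothelial and spermatogonial markers. Their part in this difference was not tested. Of the testis members named above, Adam21 shared that order, and the others were higher in replicate 1.

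At LZ, limma called 0 of the 29 members between the genotypes, beside 0.0692% of all genes called higher and 0.0252% lower, and 0 under each of the 18 settings. At an unadjusted p under 0.05 there was 1 member, Adam2, at -1.13 ± 0.26 (adjusted p = 0.55, lower in both Cnot4-null LZ libraries). The median was -0.42 for the testis list, 0.02 for the wide list and 0 for all genes tested. Most testis members are near 0 FPKM at LZ, where a difference would be small on this scale.

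The test of whether the genotype difference varies with stage called 5 of the 29 members, all positive, beside 26% of all genes called higher and 3.97% lower. These were Adam10, Adam15 and Adam9 of the wide list and Adam25 and Adam21 of the testis list. The interaction for Adam10 was 2.63 ± 0.44 (limma adjusted p = 0.00652, 0.00557 to 0.0608) and that for Adam15 2.60 ± 0.48 (limma adjusted p = 0.00878, 0.00489 to 0.0918), from a difference at PD of 2.72 and 2.46 and at LZ of 0.09 and -0.14. For Adam9 it was 1.38 ± 0.43 (limma adjusted p = 0.0492, 0.00664 to 0.94), called in 6 of 17 settings. Adam25, with Cnot4-null LZ listed at 0, had an estimate that depends on the pseudocount, 2.21 ± 0.36 (limma adjusted p = 0.00606, 0.00393 to 0.134) with 1 added and 5.04 with 0.1 added. Adam21 stood at 1.52 ± 0.38 (limma adjusted p = 0.0239, 0.0113 to 0.642), called in 7 of 16 settings. Outside Cnot4-null PD the highest value was 0.636 FPKM for Adam25 and 0.473 for Adam21, so both were tested only because of the group that carries the difference. With no filter the adjusted p was 0.00898 and 0.0259. In each of the 5, both Cnot4-null PD libraries lay above both WT PD libraries, whereas the genotypes overlapped at LZ except for Adam25 and Adam9. The all-gene median of the interaction was 0.64, and -0.13 after quantile normalization, where 1 member (Adam11, lower) was called, and -0.30 after rescaling, where 9 were (Adam10, Adam15 and Adam25 higher, and Adam1b, Adam2, Adam3, Adam11, Adam18 and Adam30 lower). There were 15 calls (12 higher, 3 lower) without Cnot4-null PD replicate 1 and without replicate 2 there were 16, all higher. All genes called went from 4770 to 7929 and 5278 in these fits. Without WT PD replicate 2 there were 2 members (1656 of all genes), and without WT PD replicate 1, WT LZ replicate 2 or Cnot4-null LZ replicate 2 there were 3.

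Position in the genome grouped many members. In GENCODE vM1 on mm9, 12 of the 32 lie on chromosome 8. Adam18, Adam3, Adam5, Adam32 and Adam9 stand next to each other on the minus strand within 414.68 kb, with gaps of 2469, 1240, 11770 and 806 bp and 0 other annotated genes between them. The wide member Adam9 is thus the neighbour of the testis member Adam32, 806 bp away. From LZ to PD in WT, Adam18, Adam3, Adam5 and Adam32 were called higher (6.23, 5.95, 6.21 and 5.98) and Adam9 lower (-2.35). At PD, Adam9 was higher in Cnot4-null (1.92) and its 4 neighbours had negative values (-1.83, -1.55, -2.01 and -1.45), signs that all 5 kept after quantile normalization and rescaling. Adam1b and Adam1a are neighbours on chromosome 5 with a gap of 15623 bp. Adam1b had the higher value of this pair in all 4 PD libraries and Adam1a in all 4 LZ libraries.

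**Figure D5:**
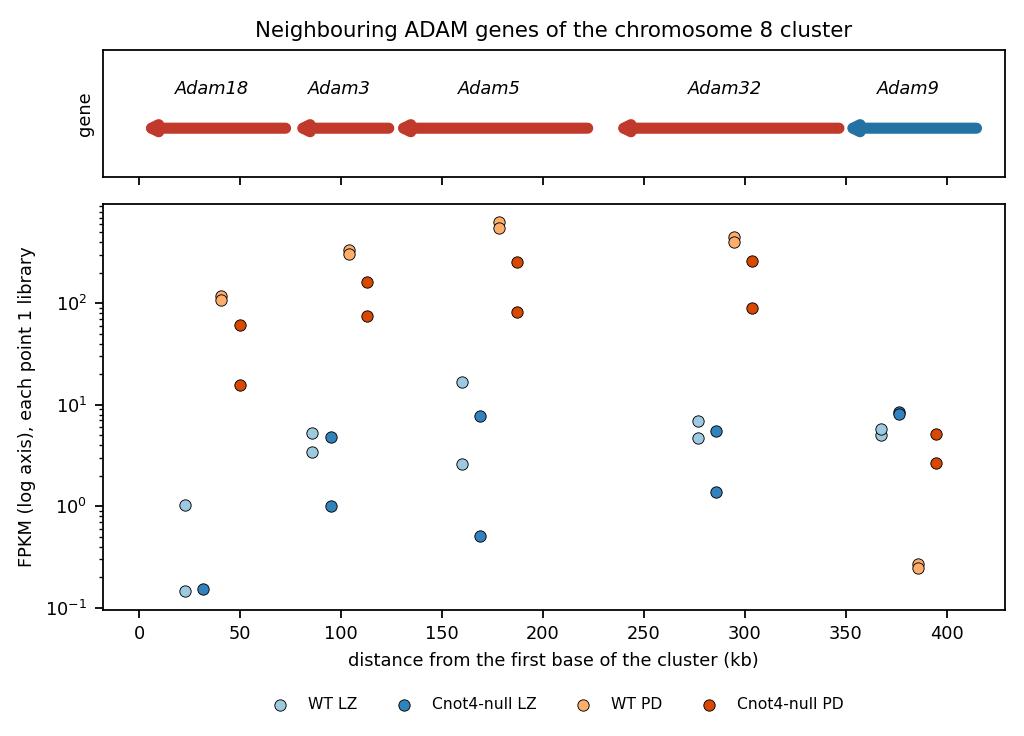
Top, the 5 neighbouring genes of the chromosome 8 cluster to scale, by distance in kb from its first base; bottom, FPKM of each gene on a log axis, 1 point per library coloured by group. The PD points of Adam18, Adam3, Adam5 and Adam32 lie above their LZ points, whereas the WT PD points of Adam9, at 0.248 and 0.271 FPKM, lie below its LZ points.

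Promoter entries (RefSeq, GRCm38.p6, 250 bases before to 50 after the start) were found for 16 of the 32 members and for 8 of the 17 named in full. Entries are missing for Adam5, Adam32, Adam2, Adam3, Adam18, Adam30, Adam4, Adam9 and Adam12. Of those named in full, the wide members had 32 (Adam10), 30 (Adam17) and 25 (Adam15) CpG dinucleotides, beside a median of 7 over 32851 promoters, and the testis members had 4 (Adam1a), 2 (Adam1b), 1 (Adam6a), 1 (Adam25) and 0 (Adam21). Adam19, also of the wide list, has 3 entries with 5, 11 and 5, and the neural members Adam23 and Adam22 have 31 and 19. The promoters of the 2 fertilin alpha copies and of Adam10 are shown because they stand for these low and high counts, with capitals marking CpG.
Adam1b, chr5:121503386-121503685 (-): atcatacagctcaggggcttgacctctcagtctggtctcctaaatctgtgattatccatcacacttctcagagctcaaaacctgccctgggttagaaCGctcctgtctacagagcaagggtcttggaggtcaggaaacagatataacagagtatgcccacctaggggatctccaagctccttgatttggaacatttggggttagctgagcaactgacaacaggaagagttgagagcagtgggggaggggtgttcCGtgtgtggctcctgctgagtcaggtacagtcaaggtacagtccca
Adam1a, chr5:121521646-121521945 (-): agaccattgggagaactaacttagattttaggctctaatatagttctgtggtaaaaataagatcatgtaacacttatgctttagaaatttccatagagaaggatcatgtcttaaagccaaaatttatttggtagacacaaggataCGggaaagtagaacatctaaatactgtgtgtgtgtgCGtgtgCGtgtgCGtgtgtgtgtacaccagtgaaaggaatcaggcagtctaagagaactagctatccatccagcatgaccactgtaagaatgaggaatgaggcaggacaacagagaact
Adam10, chr9:70678732-70679031 (+): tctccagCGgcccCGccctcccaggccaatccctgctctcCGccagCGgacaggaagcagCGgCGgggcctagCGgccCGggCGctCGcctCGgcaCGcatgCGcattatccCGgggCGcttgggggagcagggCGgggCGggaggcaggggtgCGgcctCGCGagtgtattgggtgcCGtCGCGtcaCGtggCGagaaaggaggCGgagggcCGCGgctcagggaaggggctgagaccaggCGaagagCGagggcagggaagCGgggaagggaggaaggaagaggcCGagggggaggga
Motifs were searched on both strands. For the MYB site AACNG, Adam1b held 2 matches with C before it and 1 with T, Adam1a held 1 with C, and Adam6a held 1 of each and a TATA box (TATAAA). Adam10, Adam15, Adam17, Adam21 and Adam25 held none of these, and none of the 8 held the full cAMP response element. Of all promoters, 35.02% have the MYB site with C, 23.3% that with T, 1.79% the response element and 13.62% the TATA box.

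Genes that act with ADAM proteins were read from 4 lists written from what is known of them. Of all genes tested, 21.6% higher and 36.2% lower were called from LZ to PD in WT, 27.8% higher and 18.2% lower in Cnot4-null, 41.6% higher and 11.5% lower between the genotypes at PD and 26% higher and 3.97% lower for the interaction, and the counts of the 4 lists stand beside these shares. Genes needed for ADAM3 or fertilin on sperm (16 of 17 among the symbols, Pmis2 missing) had 6 higher and 5 lower from LZ to PD in WT, 10 higher and 3 lower in Cnot4-null, 6 higher and 3 lower between the genotypes at PD and 4 higher and 1 lower for the interaction. Cmtm2b, the most abundant, stood at 12.7 and 46.5 FPKM (WT LZ), 13.6 and 2.67 (Cnot4-null LZ), 2691 and 2465 (WT PD) and 1129 and 323 (Cnot4-null PD). Cmtm2a stood at 18.6 and 69.6 FPKM (WT LZ), 16.1 and 8.86 (Cnot4-null LZ), 2318 and 2472 (WT PD) and 873 and 367 (Cnot4-null PD). Both, which encode membrane proteins of germ cells needed for ADAM3 on sperm, followed the order of groups of Adam3, and at PD the genotype difference was -2.08 ± 0.64 for Cmtm2a (limma adjusted p = 0.0301, 0.00245 to 0.212 over settings, lower in both libraries) and -2.09 ± 0.86 for Cmtm2b (adjusted p = 0.0763, 0.00847 to 0.417, not called). Tex101, a germ cell surface protein required for ADAM3 maturation, stood at 954 and 869.5 FPKM (WT LZ), 1569 and 934 (Cnot4-null LZ), 232 and 261 (WT PD) and 302 and 113 (Cnot4-null PD), highest at LZ. Its genotype values overlapped at PD (-0.41, limma adjusted p = 0.462, 0.00963 to 0.841). Its difference was 0.29 without Cnot4-null PD replicate 2 and, called lower, -1.11 without replicate 1 and -1.84 after rescaling. The largest rise of the list was Prss37, at 1.67 and 1.39 FPKM in WT PD, against 113 and 37.6 in Cnot4-null PD (4.72 ± 0.78, limma adjusted p = 0.00277, 0.00246 to 0.0286), and the largest fall Rnase10, at 12.8 and 15.1 FPKM in WT PD, against 4.12 and 1.29 in Cnot4-null PD (-2.12 ± 0.40, adjusted p = 0.00448, 0.000503 to 0.0429), each in both libraries.

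Of the 5 convertases that remove propeptides, 1 higher and 1 lower were called from LZ to PD in WT, 2 higher and 0 lower in Cnot4-null, 3 higher and 0 lower between the genotypes at PD and 1 higher and 0 lower for the interaction, beside the shares of all genes given above (41.6% higher at PD and 26% for the interaction). Pcsk4, the convertase of germ cells, stood at 1.55 and 4.59 FPKM (WT LZ), 2.16 and 2.17 (Cnot4-null LZ), 22.9 and 22.9 (WT PD) and 29.4 and 26.8 (Cnot4-null PD), so that PD libraries of both genotypes were high and LZ libraries low. Its genotype difference at PD was 0.29 ± 0.36 (limma adjusted p = 0.516, 0.0278 to 0.969), and after rescaling it was negative, at -1.10, and called (adjusted p = 0.0278). Pcsk7 stood at 6.59 and 7.21 FPKM (WT LZ), 9.72 and 4.89 (Cnot4-null LZ), 3.69 and 4.45 (WT PD) and 5.03 and 12.9 (Cnot4-null PD) and was not called at PD (0.86, limma adjusted p = 0.141, 0.0312 to 0.747), with -0.22 after quantile normalization, -0.36 after rescaling and, called, 1.46 without Cnot4-null PD replicate 1. Furin stood at 3.3 and 2.34 FPKM (WT LZ), 2.56 and 4.83 (Cnot4-null LZ), 0.097 and 0.0888 (WT PD) and 1.45 and 6.63 (Cnot4-null PD), lowest in WT PD, and rose by 1.98 ± 0.53 in Cnot4-null PD, higher in both libraries (limma adjusted p = 0.0182, 0.00361 to 0.188).

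Regulators of the sheddases (iRhoms, tetraspanins, TIMP inhibitors and Reck) had 1 higher and 7 lower of 13 from LZ to PD in WT, 5 higher and 2 lower in Cnot4-null, 8 higher and 1 lower between the genotypes at PD and 8 higher and 0 lower for the interaction, beside the shares of all genes given above (41.6% higher at PD and 26% for the interaction). Tspan14, a tetraspanin that carries ADAM10 to the cell surface, stood at 26 and 15.6 FPKM (WT LZ), 25.7 and 24.8 (Cnot4-null LZ), 0.395 and 0.413 (WT PD) and 10.2 and 27.7 (Cnot4-null PD). It was lowest in WT PD, as Adam10 was, with 1 Cnot4-null PD value above all LZ values, and rose by 3.68 ± 0.45 in Cnot4-null PD (limma adjusted p = 0.000775, 0.000317 to 0.0186, higher in both libraries). Tspan33 stood at 32.4 and 16.1 FPKM (WT LZ), 26.4 and 17.6 (Cnot4-null LZ), 13.9 and 11.3 (WT PD) and 9.02 and 5.17 (Cnot4-null PD) and was not called at PD (-0.79, limma adjusted p = 0.131, 0.0029 to 0.496), but was called lower after quantile normalization (-1.76), after rescaling (-2.07) and with the replicate block. Timp2 stood at 3.26 and 2.47 FPKM in WT PD, against 31.8 and 55 in Cnot4-null PD (3.48 ± 0.38, limma adjusted p = 0.000509, 0.000427 to 0.0132, higher in both). Timp1 stood at 1.37 and 0.861 FPKM (WT LZ), 0 and 0.861 (Cnot4-null LZ), 0 and 0 (WT PD) and 11.6 and 12.7 (Cnot4-null PD) and is listed at 0 in WT PD, so no fold is given. Its rise was the largest of the list on the log2(FPKM + 1) scale, just above that of Tspan14, and this rank is given for the scale with 1 added. The fall called was Tspan5, at 15.4 and 16.1 FPKM in WT PD, against 10.1 and 2.74 in Cnot4-null PD (-1.38 ± 0.49, limma adjusted p = 0.049, 0.00234 to 0.176, lower in both).

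Substrates of ADAM10 or ADAM17 had 3 higher and 4 lower of the 13 tested, of 16, from LZ to PD in WT, 4 higher and 1 lower in Cnot4-null, 8 higher and 2 lower between the genotypes at PD and 6 higher and 1 lower for the interaction, beside the shares of all genes given above (41.6% higher at PD and 26% for the interaction). App, the amyloid precursor protein, stood at 65.8 and 48.3 FPKM (WT LZ), 69.3 and 35.9 (Cnot4-null LZ), 1.62 and 1.16 (WT PD) and 20.1 and 25.6 (Cnot4-null PD). Kit, the receptor of spermatogonia, stood at 45.9 and 35.7 FPKM (WT LZ), 33.1 and 41.2 (Cnot4-null LZ), 0.826 and 0.497 (WT PD) and 13.7 and 39.7 (Cnot4-null PD). Both were high in all LZ libraries, at or below 1.62 FPKM in WT PD and higher in Cnot4-null PD, below the LZ values except for Kit in replicate 2. They rose in Cnot4-null PD by 3.31 ± 0.34 (limma adjusted p = 0.000428, 0.000288 to 0.0131) and 3.89 ± 0.45 (adjusted p = 0.000663, 0.000368 to 0.0191), higher in both libraries. Cdh2 (N-cadherin) went the other way, at 8.12 and 7.22 FPKM (WT LZ), 8.46 and 8.18 (Cnot4-null LZ), 29.3 and 29.6 (WT PD) and 12.7 and 9.32 (Cnot4-null PD), and fell by 1.36 ± 0.22 on the log2 scale (limma adjusted p = 0.00256, 0.000363 to 0.0322, lower in both libraries). At LZ, limma called 0 genes of these 4 lists (at an unadjusted p under 0.05, 2, 0, 2 and 1). Kit also belongs to the spermatogonial marker list and Rnase10 to the epididymis list.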

How the data were processed

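The authors deposited FPKM per gene symbol for each of 8 libraries. According to the submitters' processing notes, reads were mapped to mm9 with TopHat2 2.1.1 and quantified with Cufflinks 2.2.1. Their methods add that reads were trimmed and only those mapped to 1 place were used. The labels place the libraries in 4 groups.

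A gene was tested if its FPKM exceeded 1 in any library, which 15899 of 23235 did. A model of the 4 group means was fitted to log2(FPKM + 1) of the 8 libraries together, using limma 3.58.1 under R 4.3.3 (eBayes with a trend, two-sided tests, 4 residual degrees of freedom). Benjamini-Hochberg adjustment was over all genes tested within each of 5 comparisons. With 2 against 2, the smallest p of an exact permutation test is 0.333, and none was run. The procedure was tested on simulated data. Alternatives were no filter, a mean FPKM of at least 1, a pseudocount of 0.1, quantile normalization, rescaling to the same median, no trend, only the libraries compared, a replicate block, an adjusted p under 0.01 and each library left out in turn, 18 settings with the one reported and 17 for the interaction.

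The members, lists and markers were chosen with earlier results of these data known. Members named in full are the 10 testis and 5 wide members with the highest mean FPKM and those called for the interaction; of the other lists, the 3 most abundant genes and the largest called rise and fall at PD. Adam19, Adam26a, Adam26b, Adam28, Adam11 and Adam23 were named after their values were seen. A range of adjusted p beside a result runs over these settings.

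The deposited FPKM files hold no read totals. The authors list total reads elsewhere, and these were not used. From the FPKM step of genes with low values, the total behind each library's FPKM relative to WT LZ replicate 1 was, for replicates 1 and 2, 0.935 and 1.06 (Cnot4-null LZ), 1.22 and 1.33 (WT PD) and 1.003 and 0.823 (Cnot4-null PD), and 1.06 for WT LZ replicate 2. These are scaling totals and need not be in proportion to the reads sequenced. Across the 29 members tested, which are not independent replicates, Spearman's rho between the 2 libraries of a group was 0.711 (WT LZ), 0.842 (Cnot4-null LZ), 0.922 (WT PD) and 0.795 (Cnot4-null PD), and 20 of 29 were lower in Cnot4-null PD replicate 2 than in replicate 1. Coding sequences and positions come from GENCODE vM1 on mm9, aligned with MAFFT v7.526, and promoters from RefSeq. Sequences were handled and figures drawn in Python 3.11.15 with Biopython 1.88 and matplotlib 3.10.9.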

Additional observations from a re-analysis of the deposited data

Results flagged for a closer look

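For 5 members the genotype difference on the log2(FPKM + 1) scale itself differed between the stages in limma's interaction test, and 4139 of the 15899 genes tested were called in the same direction. The difference was 2.72 at PD and 0.09 at LZ for Adam10 (interaction 2.63, adjusted p = 0.00652). For Adam15 it was 2.46 at PD and -0.14 at LZ (interaction 2.60, adjusted p = 0.00878). Adam9 had 1.92 at PD and 0.54 at LZ (interaction 1.38, adjusted p = 0.0492). Adam25 had 1.73 at PD and -0.48 at LZ, with Cnot4-null LZ listed at 0 (interaction 2.21, adjusted p = 0.00606). Adam21 had 1.60 at PD and 0.08 at LZ (interaction 1.52, adjusted p = 0.0239). In all 5, both Cnot4-null PD libraries were higher than both WT PD libraries. After quantile normalization none of the 5 was called, and after rescaling Adam10, Adam15 and Adam25 were. Adam25 and Adam21 exceed 1 FPKM only in Cnot4-null PD, so they were tested only because of that group, and Adam21 is not tested with a mean FPKM of at least 1. The interaction was called in 16 of 17 settings for Adam10, 15 of 17 for Adam15, 16 of 17 for Adam25, 7 of 16 for Adam21 and 6 of 17 for Adam9, whose value was 0.0526 after quantile normalization. The part of other cell types in these values was not tested.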

How the results depend on the processing

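Counts of members called were recomputed under each alternative. From LZ to PD, and between the genotypes at LZ, they ran from 11 to 18 in WT (14 reported), from 14 to 23 in Cnot4-null (21 reported) and were 0 at LZ throughout. Between the genotypes at PD, 20 members were called, and 12 with a pseudocount of 0.1, 8 after quantile normalization, 11 with only the libraries compared in the model and 8 at an adjusted p under 0.01. All genes called went from 8449 to 8258, 6913, 6088 and 4811 in the same order. The change at an adjusted p under 0.01 follows from the stricter threshold, and for the others the cause was not tested. Leaving out 1 library gave 6 to 20. For the interaction, 5 were called, and 1 after quantile normalization, 9 after rescaling to the same median and 3 at an adjusted p under 0.01, and leaving out 1 library gave 2 to 16. The lone library left in a group is assumed to vary like the other groups. All genes called for the interaction were 4770, and 3514 after quantile normalization, 7313 after rescaling and 1709 at an adjusted p under 0.01.

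The labels number the replicates alike in each group. By their labels the samples share only this number. How far a library lay from the mean of its group correlated at -0.0651 to 0.194 with the library of the same number in another group, over 6 pairs of groups. With the replicate number as a block, 12 members were called from LZ to PD in WT, 22 in Cnot4-null, 17 between the genotypes at PD, 0 at LZ and 5 for the interaction. All genes called were 9085, 7128, 8298, 16 and 4355 in the same order. Of the 5 members called for the interaction, 4 were among those reported. Adam9 was no longer called there (limma adjusted p = 0.0608), and another member gained a call.

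Over all settings, 8 of the 29 members tested had values of both signs from LZ to PD in WT, 3 in Cnot4-null, 9 between the genotypes at PD, 16 at LZ and 13 for the interaction. Of these, only Adam19 in Cnot4-null and Adam26a, Adam26b, Adam28 and Adam39 at PD were called in the values reported. Among the results recomputed one by one, which do not take in every member and comparison, signs changed as follows, and the cause was not tested. Quantile normalization changed the sign from LZ to PD in WT for Adam4 (0.25) and Adam12 (0.31); from LZ to PD in Cnot4-null for the median of all genes tested (-0.29); between the genotypes at PD for Adam17 (-0.25), Adam12 (-0.32), Adam19 (-0.73), Adam26a (-0.72), Adam26b (-0.38), Adam28 (-0.31), Adam29 (-0.44), Adam34 (-0.26), Adam39 (-0.0374), Pcsk4 (-0.0206), Pcsk7 (-0.22), the median of the testis list (-0.38) and the median of all genes tested (-0.10); for the interaction for Adam17 (-0.31), Adam12 (-0.30), Adam28 (-0.41), the median of the testis list (-0.13), the median of the wide list (-0.12) and the median of all genes tested (-0.13). Rescaling to the same median changed the sign from LZ to PD in WT for Adam4 (0.0494), Adam12 (0.11) and the median of all genes tested (0.04996); from LZ to PD in Cnot4-null for the median of all genes tested (-0.22); between the genotypes at PD for Adam17 (-0.37), Adam19 (-0.0163), Adam26a (-0.068), Adam29 (-0.0284), Pcsk4 (-1.10), Pcsk7 (-0.36) and the median of all genes tested (-0.21); for the interaction for Adam17 (-0.46) and the median of all genes tested (-0.30). Of these, Adam19 (0.0277) and Pcsk4 (0.0278) had an adjusted p under 0.05 in limma, at -0.73 and -1.10, lower in Cnot4-null PD. A pseudocount of 0.1 changed the sign from LZ to PD in WT for Adam12 (0.20); for the interaction for Adam1b (0.27) and Adam30 (0.23). Over the 8 libraries left out in turn, values crossed 0 from LZ to PD in WT for Adam1a (-0.0786 to 0.41), Adam6a (-0.62 to 0.93), Adam4 (-0.66 to 0.26), Adam12 (-0.27 to 0.21) and Adam25 (-0.0387 to 0.26); between the genotypes at PD for Adam34 (-0.0258 to 1.28) and Tex101 (-1.11 to 0.29); between the genotypes at LZ for Cnot4 (-0.0351 to 0.28); for the interaction for Adam5 (-2.14 to 0.39), Adam32 (-1.45 to 0.089) and Adam30 (-1.31 to 0.0166). The median of the wide list between the genotypes at LZ, 0.02 as reported, also changed sign, to -0.0165 with no filter, -0.15 without WT LZ replicate 2 and -0.0312 without Cnot4-null LZ replicate 2.

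Of the single genes reported, outside the libraries left out, 778 values kept their direction and side of the threshold, 100 kept their direction and lost the call, 24 gained one and 28 changed sign. Over the libraries left out these counts were 709, 110, 23 and 14.

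Groups of 2 libraries, a shift of all genes between Cnot4-null PD and WT PD that depends on the scaling, and markers of other cell types in Cnot4-null PD limit these values. A scaling between libraries is not stated for the FPKM, and the fragments behind each value are not in the files. Members with near-identical copies or overlapping genes have uncertain levels.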
